A study of Mus musculus with 10 samples.

Results

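The meiotic division cell cycle genes described here are 10 named genes whose products carry a spermatocyte from late prophase into its divisions. They are the cyclin genes Ccna1, Ccnb1, Ccnb2 and Ccnb3, the kinase gene Cdk1 and its phosphatase Cdc25c, the kinase genes Plk1, Aurka and Aurkc, and the translation initiation gene Eif4g3. They were chosen by name among the 55421 genes of the count files, and all 10 were found there once. The samples were whole testes of P21 (postnatal day 21) mice: 3 RNA-seq libraries of wild type (Mov10+/+) testes and 3 of Mov10-/- testes, each from the pair of testes of 1 mouse, beside 4 MOV10 CLIP-seq libraries of P21 testicular cells. MOV10 is an RNA helicase. The study describes Mov10-/- as a global knockout on a mixed genetic background, in which floxed exons were deleted with a Cre driven by the ubiquitous Actb promoter. The question was whether the RNA levels of these genes differed between the genotypes at an age when the leading wave of germ cells has passed through the meiotic divisions.

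Entry into the meiotic divisions is set by CDK1, a kinase that works only with a cyclin partner. Cyclin A1 is made almost only in male germ cells, and male mice without it stop before the divisions. B-type cyclins give CDK1 its activity at the division itself, CDC25 phosphatases remove the inhibitory phosphates from CDK1, and polo and aurora kinases build the spindle and drive chromosome segregation. EIF4G3 is a scaffold of the cap-binding complex that is needed in spermatocytes for the synthesis of the CDK1 chaperone HSPA2. Many of these genes are transcribed earlier than their proteins act, in pachytene spermatocytes.

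The promoters of several members are shown because cell cycle genes of this kind are known to share motifs there. No relation between these motifs and the RNA levels was tested. The CHR (cell cycle genes homology region, TTTGAA or TTCGAA) is bound by the DREAM and MuvB complexes, and the CCAAT box (CCAAT) by NF-Y. RefSeq promoters (GRCm38.p6, 250 bases before to 50 bases after the gene start) were found for 9 of the 10 members, all but Cdc25c. The RefSeq start lay 446 bases inside the GENCODE gene for Ccna1, and 433 and 434 bases inside it for Eif4g3. The promoters of Ccna1 and Eif4g3 searched here thus lie wholly within the GENCODE genes, and bases before the GENCODE starts were not searched for them. Both motifs were searched on both strands, and no match of the CHR overlapped a match of the CCAAT box in these promoters. The CHR was in 4 of the 9 promoters (Ccnb2, Cdk1, Plk1 and Aurka), and in 19.2% of all 32851 promoters of the table. The CCAAT box was in 7 of the 9, all but Ccnb3 and Eif4g3, and in 37.4% of all promoters. All 4 promoters with a CHR also held a CCAAT box, a pair present in 7.52% of all promoters. Capitals mark the motifs in the 4 promoters with both, and in that of Ccna1, the cyclin with the lowest fold change, which held a CCAAT box on the opposite strand and no CHR. The promoters lie at chr9:70421505-70421804, minus strand for Ccnb2, chr10:69352863-69353162, minus strand for Cdk1, chr7:122159185-122159484, plus strand for Plk1, chr2:172370521-172370820, minus strand for Aurka and chr3:55055006-55055305, minus strand for Ccna1, and each is written 5′ to 3′ along its gene.
Ccnb2: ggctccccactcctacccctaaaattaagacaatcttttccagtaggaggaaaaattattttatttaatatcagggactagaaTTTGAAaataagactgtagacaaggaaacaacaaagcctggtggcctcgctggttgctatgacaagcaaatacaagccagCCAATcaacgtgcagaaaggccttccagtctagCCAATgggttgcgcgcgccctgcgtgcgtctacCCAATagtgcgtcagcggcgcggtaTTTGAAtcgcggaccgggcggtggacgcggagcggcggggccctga
Cdk1: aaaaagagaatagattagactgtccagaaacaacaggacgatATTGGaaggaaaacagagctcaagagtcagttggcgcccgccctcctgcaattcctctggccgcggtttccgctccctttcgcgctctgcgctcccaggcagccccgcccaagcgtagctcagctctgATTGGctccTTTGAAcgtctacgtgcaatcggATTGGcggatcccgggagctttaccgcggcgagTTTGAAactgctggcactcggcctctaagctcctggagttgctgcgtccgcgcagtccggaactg
Plk1: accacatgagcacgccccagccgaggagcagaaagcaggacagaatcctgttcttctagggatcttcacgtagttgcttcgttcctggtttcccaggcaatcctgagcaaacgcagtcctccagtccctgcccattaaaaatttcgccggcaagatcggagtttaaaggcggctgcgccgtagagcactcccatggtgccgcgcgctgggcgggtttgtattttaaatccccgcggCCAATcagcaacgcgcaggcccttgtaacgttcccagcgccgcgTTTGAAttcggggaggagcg
Aurka: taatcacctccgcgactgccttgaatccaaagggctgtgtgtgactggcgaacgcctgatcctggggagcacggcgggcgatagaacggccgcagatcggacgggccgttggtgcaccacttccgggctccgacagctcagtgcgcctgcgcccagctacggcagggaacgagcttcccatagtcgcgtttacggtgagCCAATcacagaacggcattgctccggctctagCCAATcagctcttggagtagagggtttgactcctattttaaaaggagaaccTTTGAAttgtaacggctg
Ccna1: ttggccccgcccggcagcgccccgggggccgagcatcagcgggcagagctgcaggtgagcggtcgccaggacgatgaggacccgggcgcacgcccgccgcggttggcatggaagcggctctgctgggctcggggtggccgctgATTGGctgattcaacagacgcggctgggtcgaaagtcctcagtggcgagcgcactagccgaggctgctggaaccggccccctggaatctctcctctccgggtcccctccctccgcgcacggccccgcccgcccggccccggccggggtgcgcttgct

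The RNA-seq libraries held 5083407 to 9230540 reads on genes, the fewest in Mov10-/- 3, where 57.2% of reads were not aligned against 26.5% to 35.9% in the others. Levels are given as CPM, reads per 1000000 reads on genes after TMM scaling, and 1 read stood for 0.108 to 0.197 CPM before that scaling. Mov10 itself had 96.4 to 119 CPM in wild type and 26.6 to 29.0 in Mov10-/-, a log2 fold change of -2.0 (SE 0.12). edgeR's quasi-likelihood test gave an adjusted p of 0.00552, so the libraries followed their labels. A gene was called when its fold change was over 2 and its adjusted p, by the Benjamini-Hochberg method over all 20240 genes above 1 CPM in at least 3 libraries, was under 0.05. Mov10 was the only gene called lower by this test, which is 0.00494% of the genes tested, and 0 were called higher. That number depended strongly on the test. edgeR's likelihood ratio test called 1104 genes lower and 83 higher, its exact test 1031 and 70, and DESeq2 988 and 51. The study used edgeR with the same fold and adjusted p thresholds, and reports many genes lower and fewer higher in Mov10-/- testes.

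9 of the 10 members passed the filter on low counts, all but Ccnb3, and 0 of the 9 were called lower or higher in Mov10-/- testes. Their log2 fold changes (Mov10-/- over wild type) ran from -0.66 for Cdc25c to 0.09 for Cdk1, with a median of -0.23 beside 0.03 for all genes tested. Single libraries moved that median by over 1.5 times: it was -0.12 without wild type 2, -0.12 without Mov10-/- 2 and -0.37 without Mov10-/- 3. 8 of the 9 were below 0, all but Cdk1, where 46.2% of all genes tested were below 0. At an unadjusted p under 0.05, 1 member was lower (Cdc25c, background 11.9%) and 0 were higher (background 5.57%). All 3 Mov10-/- libraries lay under all 3 of wild type for 1 member, again Cdc25c, where 14.1% of all genes were so placed, and over them for 0 members, against 11.9%. DESeq2, which called 4.88% of all genes lower, called 0 members, and so did limma voom and edgeR's likelihood ratio and exact tests. In whole testes, fewer cells of a type and less RNA per cell cannot be told apart.

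**Figure D1:**
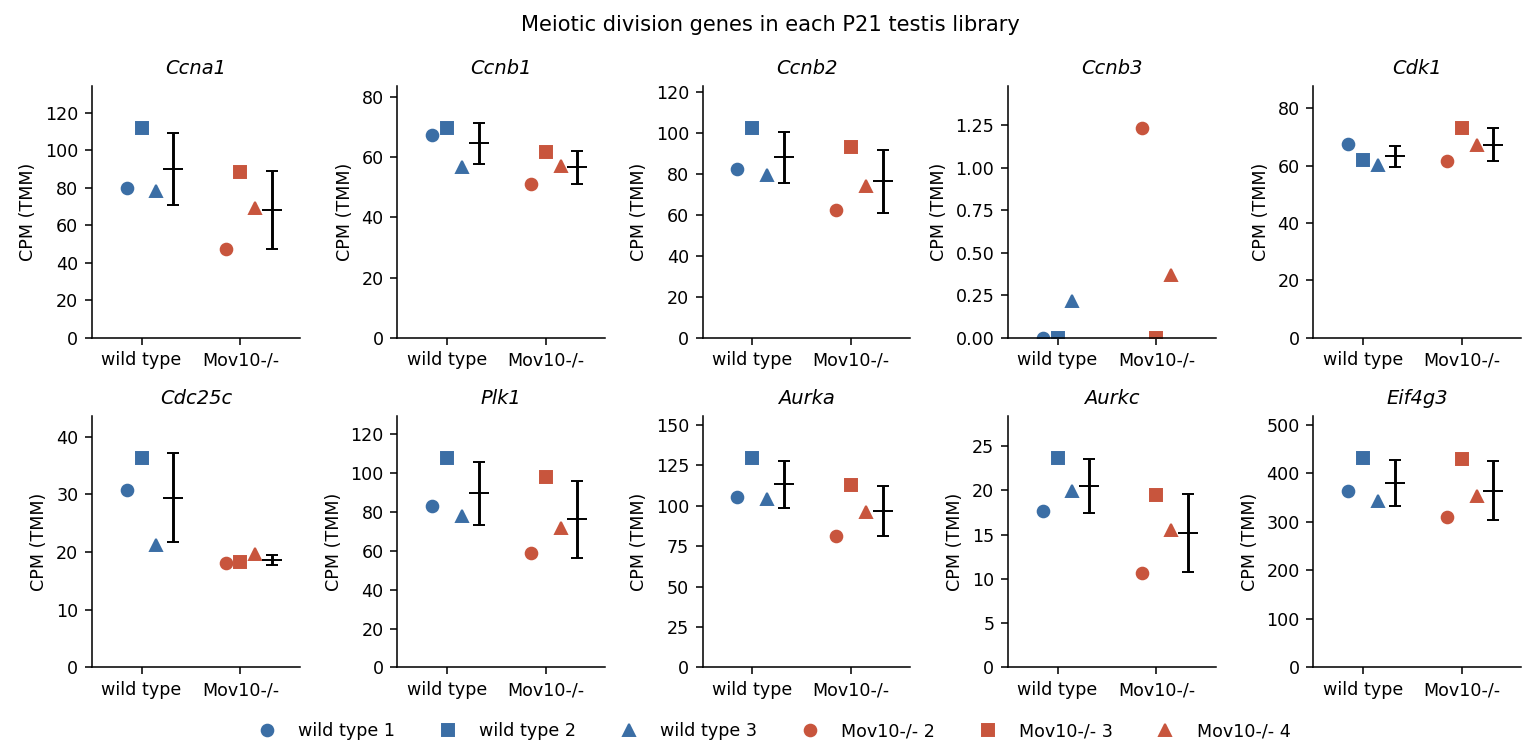
CPM after TMM scaling (y axis, from 0) of the 10 genes in the 3 wild type (blue) and 3 Mov10-/- (red) libraries, 1 point per library, with the group mean and SD in black except for Ccnb3, which had 0 to 10 reads per library. The genotypes overlapped for every gene but Cdc25c, whose Mov10-/- libraries lay at 18.2 to 19.7 CPM and whose wild type libraries lay at 21.3 to 36.4.

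Among the cyclins, Ccna1 (chromosome 3, 55045469 to 55055501, minus strand, mm10) had 79.7, 112 and 78.3 CPM in wild type 1, 2 and 3, and 47.2, 88.6 and 69.1 CPM in Mov10-/- 2, 3 and 4. Mov10-/- 3 was above wild type 1 and 3, so the groups overlapped. The means were 90.0 ± 19.1 and 68.3 ± 20.7 CPM (SD, n = 3 each), and the log2 fold change was -0.40 (SE 0.24, 95% confidence interval -0.96 to 0.15). The edgeR adjusted p was 0.427. An annotated antisense RNA gene, 4931419H13Rik, shares 185 bases of the exons of Ccna1 and had 40 to 114 reads per library, and whether the counting used strand is not given in the sources used here.

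Ccnb1 (chromosome 13, 100778650 to 100786570, minus strand) encodes the cyclin that CDK1 needs at division in most cells. It had 67.2, 69.7 and 56.8 CPM in the wild type libraries and 50.9, 61.8 and 56.9 CPM in the Mov10-/- libraries. The lowest wild type library was level with Mov10-/- 4 and below Mov10-/- 3. The log2 fold change was -0.19 (SE 0.13) with an adjusted p of 0.486 by edgeR.

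Ccnb2 (chromosome 9, 70407692 to 70421547, minus strand), a B-type cyclin gene highly expressed in male germ cells, had 82.5, 102 and 79.2 CPM in wild type and 62.1, 92.9 and 73.8 CPM in Mov10-/-. Mov10-/- 2 was the lowest of the 6 and Mov10-/- 3 the second highest. The log2 fold change was -0.21 (SE 0.17, adjusted p of 0.556 by edgeR), and it was -0.087 without wild type 2, -0.086 without Mov10-/- 2 and -0.37 without Mov10-/- 3. Pseudogene copies of both genes, Ccnb1-ps (0.818 to 1.64 CPM) and Ccnb2-ps (1.43 to 6.27 CPM), had low counts of their own. Reads that align equally well to a gene and its copy are not unique and were left out of the counts. How many such reads Ccnb1 and Ccnb2 lost is not known, and the counts of the copies do not bound it.

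Ccnb3 (chromosome X, 6979652 to 7041619, minus strand), a cyclin gene of early meiotic prophase, had 0, 0 and 2 reads in wild type and 10, 0 and 3 reads in Mov10-/-. It was below the filter and was not tested. A count of 0 allows a true level of up to 3 counts, and only Mov10-/- 2 was above that. Other genes that dividing or somatic cells of the testis use were as low in these files: Kif11, a spindle motor gene, had 0 to 2 reads, Plk4, a centriole kinase gene, 1 to 10, and Rhox5, a Sertoli cell homeobox gene, 0 to 1. None of the 4 shares an annotated exon base with another gene, and the cause of these counts was not tested.

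Cdk1 (chromosome 10, 69335146 to 69352938, minus strand) had the smallest SE of the members in this fit, though not with the coverage-dependent scaling described further on. Its levels were 67.5, 61.9 and 60.4 CPM in wild type and 61.6, 73.2 and 67.1 CPM in Mov10-/-, and the groups overlapped. The log2 fold change was 0.09 (SE 0.11), and its 95% confidence interval of -0.17 to 0.35 leaves out a change of 2-fold in either direction. The intervals of the other tested members did so too, all but those of Cdc25c and Aurkc. The adjusted p by edgeR was 0.714.

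Cdc25c (chromosome 18, minus strand) was the member with the largest difference between the genotypes. Of its exons 623 bases are shared with Gm3550 on the opposite strand, which had 0 to 2 reads. CDC25C is 1 of the phosphatases that switch CDK1 on. It had 30.7, 36.4 and 21.3 CPM in wild type 1, 2 and 3, and 18.2, 18.2 and 19.7 CPM in Mov10-/- 2, 3 and 4. All 3 Mov10-/- libraries were below all 3 wild type libraries, but wild type 3 stood only slightly above them, and the spread was far wider in wild type (29.5 ± 7.64 CPM) than in Mov10-/- (18.7 ± 0.854 CPM, SD, n = 3 each). The log2 fold change was -0.66 (SE 0.23, 95% confidence interval -1.19 to -0.12). edgeR gave a p of 0.0231 before adjustment and 0.215 after it, so the gene was not called. Without wild type 2, its highest library, the log2 fold change was -0.47, and without wild type 3, its lowest, it was -0.85 with an adjusted p of 0.0984, the lowest that any of the alternatives gave for a member, within a range for Cdc25c of 0.0984 to 0.975.

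Plk1 (chromosome 7, 122159439 to 122169873, plus strand), the polo kinase gene that acts on CDC25 and on the spindle, had 83.1, 108 and 77.9 CPM in wild type and 59.0, 98.0 and 71.9 CPM in Mov10-/-. Its Mov10-/- 3 library was above wild type 1 and 3. Another gene, Gm44985, shares 156 of its exon bases from the opposite strand and had 0 to 9 reads. The log2 fold change was -0.24 (SE 0.20) with an adjusted p of 0.577 by edgeR, and it was -0.083 without wild type 2, -0.089 without Mov10-/- 2 and -0.45 without Mov10-/- 3. Aurka (chromosome 2, 172356190 to 172370535, minus strand) encodes the aurora kinase of the spindle poles.

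Aurka had 106, 130 and 104 CPM in wild type and 81.5, 113 and 96.0 CPM in Mov10-/-, with only Mov10-/- 3 inside the wild type range. Its log2 fold change was -0.23 (SE 0.15, adjusted p of 0.459 by edgeR). Aurkc (chromosome 7, 6995300 to 7003091, plus strand), the aurora kinase gene largely restricted to germ cells, stood at a lower level. Its libraries had 17.7, 23.7 and 20.0 CPM in wild type and 10.6, 19.4 and 15.5 CPM in Mov10-/-. Mov10-/- 3 again lay within the wild type range, and the log2 fold change was -0.44 (SE 0.27, adjusted p of 0.450 by edgeR).

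Eif4g3 (chromosome 4, 137993022 to 138208508, plus strand) had the highest CPM of the members, with 363, 432 and 343 CPM in wild type and 310, 430 and 353 CPM in Mov10-/-. The groups overlapped in part, with Mov10-/- 2 below all wild type libraries and wild type 2 above all Mov10-/- libraries. The log2 fold change was -0.06 (SE 0.15, 95% confidence interval -0.40 to 0.28, adjusted p of 0.856 by edgeR), and it turned positive when wild type 2 or Mov10-/- 2 was left out.

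**Figure D2:**
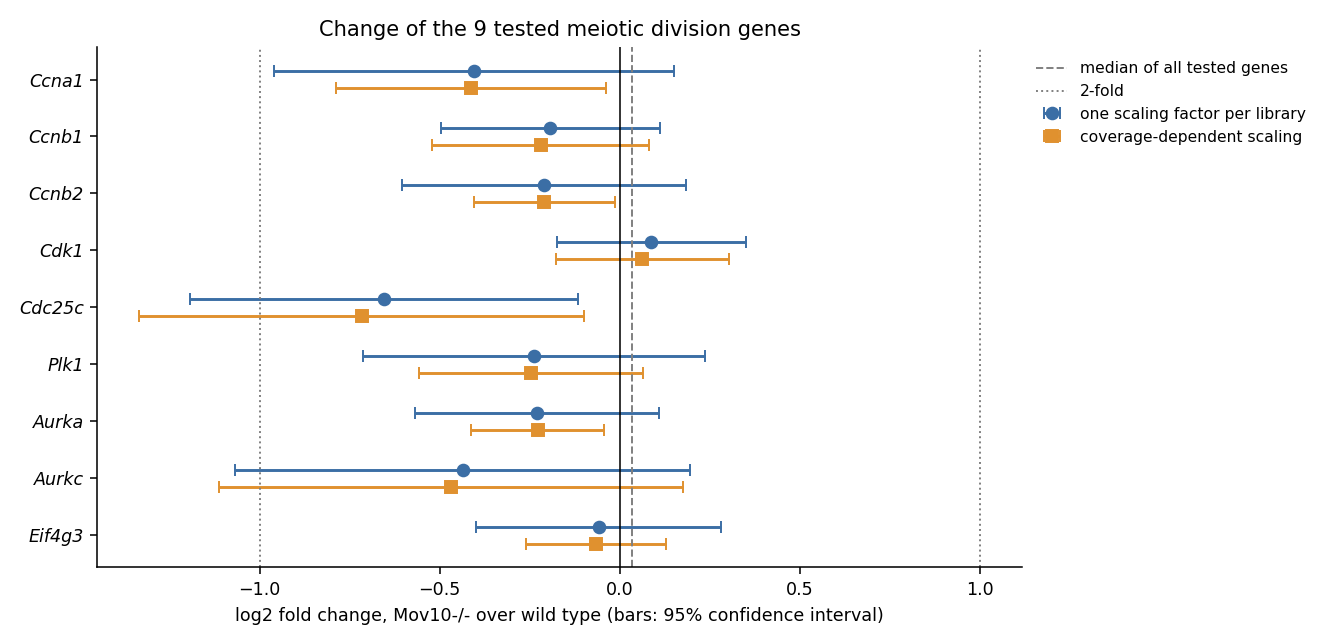
log2 fold change, Mov10-/- over wild type (x axis), of the 9 tested genes with its 95% confidence interval, from the fit with 1 scaling factor per library (blue circles) and from the fit with coverage-dependent scaling (orange squares). The estimates hardly moved between the fits, while the intervals of Ccna1, Ccnb2 and Aurka shortened and no longer reached 0, and only Cdk1 lay above 0. The coverage-dependent scaling was added after seeing the data. The intervals are not adjusted for the number of genes, and 0 members were called in either fit.

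Levels are comparable between genes only per length, and on the scale of CPM per kilobase of exon the wild type order was Ccnb2 (57.5 ± 8.18, SD, n = 3), Ccna1 (49.1 ± 10.4), Aurka (44.7 ± 5.70), Plk1 (40.8 ± 7.33) and Eif4g3 (34.3 ± 4.25). A lower tier followed with Ccnb1 (15.3 ± 1.62), Aurkc (13.4 ± 1.99), Cdk1 (12.8 ± 0.761) and Cdc25c (5.99 ± 1.55). Each neighbour in the upper tier overlapped the next in its range over the 3 wild type libraries, as did Ccnb1, Aurkc and Cdk1. The step from Eif4g3 (lowest library 31.0) to Ccnb1 (highest library 16.5) and that from Cdk1 (lowest 12.2) to Cdc25c (highest 7.40) were larger than the spread. Ccnb3 was at 0 to 0.0468. The length was that of all annotated exons of a gene together, not of the transcripts expressed, so the order also depends on the annotation. It was 4217 bases for Ccnb1, 4934 for Cdk1 and 4919 for Cdc25c against 1531 for Ccnb2. Aurkc, in the lower tier, had 1523 bases, and Eif4g3, in the upper tier, had 11063.

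The members varied together among libraries of the same genotype. Wild type 2 was the highest wild type library for 8 of the 9 tested members, with Cdk1 the exception, and wild type 3 was the lowest for 8, with Aurkc the exception. In Mov10-/-, replicate 2 was the lowest for all 9, and replicate 3 the highest for 8, with Cdc25c the exception. With Mov10-/- 3 left out, the genotypes did not overlap for 6 of the 9 members, all lower in Mov10-/-, where 21.9% of all genes were so placed among the remaining 5 libraries. Without wild type 1 the number was 2 (all genes 20%), and without wild type 3 it was also 2 (all genes 18.5%). It was 1 without wild type 2, without Mov10-/- 2 or without Mov10-/- 4, and the share over all genes was not computed for these sets.

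The members also differed in read coverage. The reads per exon base were raw counts over the length of all annotated exons of a gene. They averaged 0.409 for Ccnb2, 0.328 for Ccna1, 0.317 for Aurka, 0.286 for Plk1 and 0.255 for Eif4g3. For the others they averaged 0.110 for Ccnb1, 0.101 for Cdk1, 0.0896 for Aurkc and 0.0381 for Cdc25c. Across 21845 protein-coding genes the 99th percentile was 0.318 to 0.479 per library and the highest value 0.743 to 1.28, so the well covered members stood near the top of the scale. Counts did not scale evenly with depth along it. In Mov10-/- 3, the shallowest library, the median ratio of raw counts to the mean of Mov10-/- 2 and 4 was 0.513 for genes at 0.002 to 0.01 reads per base and 0.798 for genes at 0.4 to 0.6. In wild type 2 the ratio to the mean of wild type 1 and 3 was 0.743 for the lowest of these ranges, 0.667 at 0.01 to 0.03, 0.696 at 0.03 to 0.1 and 0.980 at 0.4 to 0.6, so it rose only from the second range on. With a single scaling factor per library, genes at the top of the coverage scale thus stood higher against their genotype mates in these libraries than most other genes did. What made the counts depend on coverage in this way was not tested.

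**Figure D3:**
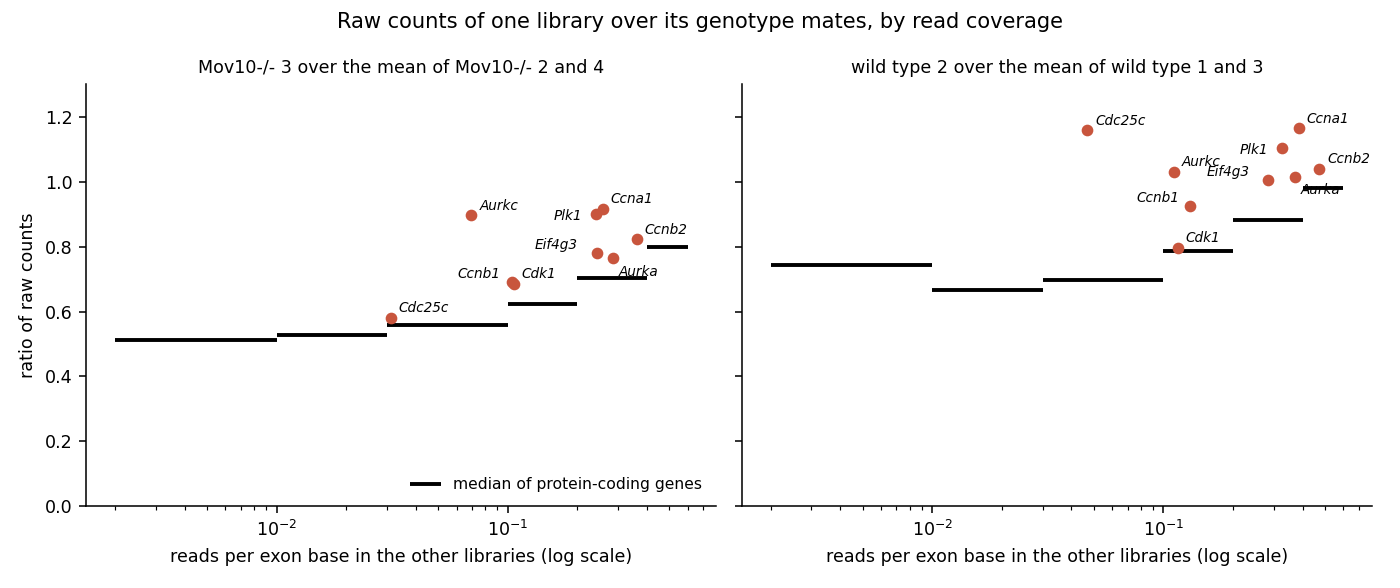
Ratio of raw counts (y axis) in Mov10-/- 3 over the mean of its genotype mates (left) and in wild type 2 over the mean of its mates (right), against the reads per exon base in those mates (x axis, log scale), with the median of protein-coding genes in each coverage range as black lines and the 9 tested members as red points. The medians climb from 0.513 in the lowest range to 0.798 in the highest on the left, and on the right they go from 0.743 in the lowest range through 0.667 in the next to 0.980 in the highest.

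With a scaling that followed this curve in each library, an alternative added after seeing the data, 0 members were called, but the libraries of a genotype came closer together for the well covered members. The curve was fitted over all genes past the filter, and whether it also took up differences in cell types between libraries was not tested. The order of the libraries stayed for most members. Wild type 2 was still the highest of its genotype for 8 of 9 and Mov10-/- 2 still the lowest for all 9, while Mov10-/- 3 was the highest for 8, now with Aurka the exception. Ccnb2 then had 85.7, 92.7 and 83.4 scaled CPM in wild type and 72.3, 77.8 and 76.3 in Mov10-/-. Aurka had 109, 121 and 108 in wild type against 92.4, 97.7 and 98.1 in Mov10-/-. Ccna1 had 82.3, 104 and 81.2 against 53.7, 76.4 and 70.7. In all 3 genes the genotypes no longer overlapped, with Mov10-/- lower, which with Cdc25c made 4 of 9 members, where 15.6% of all genes were so placed. The same 4 had an unadjusted p under 0.05 in this fit, where 13% of all genes did and were lower. The log2 fold changes were -0.41 (SE 0.16) for Ccna1, -0.21 (SE 0.08) for Ccnb2, -0.72 (SE 0.26) for Cdc25c and -0.23 (SE 0.08) for Aurka, and the edgeR adjusted p values of these 4 were 0.198 to 0.235. Plk1, with 85.5, 101 and 80.2 against 66.1, 86.1 and 73.2 scaled CPM, and Eif4g3, with 372, 411 and 350 against 342, 383 and 358, still overlapped.

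The wider division pathway had a median nearer 0 than the members. Of 77 further genes in 6 groups, 74 passed the filter, and 0 were called in either direction. Their median log2 fold change was -0.02, with 40 below 0. The genotypes did not overlap for 14 of the 74, 7 with Mov10-/- lower and 7 with Mov10-/- higher, where the backgrounds were 14.1% and 11.9%. At an unadjusted p under 0.05 there were 4 lower and 1 higher of the 74, fewer than the backgrounds of 11.9% and 5.57% over all genes would give. The 4 were Cdc25a and 3 of the 13 tested spindle, kinetochore and cytokinesis genes (Cenpe, Nusap1 and Kif18a, of which the last pair was named after its values were seen).

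Among regulators of CDK1 (17 tested, median log2 fold change 0.01), the gene with the largest log2 fold change was Cdc25a, which encodes a sister phosphatase of CDC25C. It had 116, 138 and 110 CPM in wild type and 90.6, 90.8 and 100.1 CPM in Mov10-/-, so the groups did not overlap. Its log2 fold change was -0.37 (SE 0.11, adjusted p of 0.179 by edgeR). Hspa2, whose product is the CDK1 chaperone of spermatocytes, had the highest level of the group, at 203 to 236 CPM in wild type and 197 to 313 CPM in Mov10-/-, with a log2 fold change of 0.17 (SE 0.18, adjusted p of 0.635 by edgeR). Mov10-/- 3 held the highest value of all 6 libraries, whereas for 8 of the 9 members that place was taken by wild type 2.

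In the group of polo and aurora partners (9 tested, median -0.03), Haspin, a histone kinase gene expressed highly in male germ cells, stood highest with 161 to 215 CPM in wild type and 127 to 185 CPM in Mov10-/-. Plk3 had the largest log2 fold change of the list, 2.73 to 5.28 CPM against 6.14 to 8.52 CPM, a log2 fold change of 0.85 (SE 0.35, adjusted p of 0.260 by edgeR) at a low level. In the group of the anaphase-promoting complex, checkpoint and cohesin release (16 tested, median -0.07) the separase gene Espl1 was highest, at 252.9 ± 19.7 CPM in wild type and 235.6 CPM on average in Mov10-/-. Its partner securin, Pttg1, was furthest from 0, with a log2 fold change of -0.27 (SE 0.17, adjusted p of 0.468 by edgeR).

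Cenpe, a kinetochore motor gene, was the gene furthest from 0 in the spindle, kinetochore and cytokinesis group (13 tested, median -0.07), with 198 to 230.1 CPM in wild type and 150.4 to 170.4 CPM in Mov10-/-. Its log2 fold change of -0.39 (SE 0.10) had an adjusted p of 0.150 by edgeR. Top2a, a topoisomerase gene and the highest of that group, was at 0.06 (SE 0.09). The cap-binding initiation genes (11 tested, median 0.08) lay on both sides of 0, with 4 of 11 below it. Eif4g2 was at 0.06 (SE 0.09) and Eif4ebp1, which encodes a repressor of cap binding, at 0.30 (SE 0.18). Of the transcription regulators (8 tested, median -0.09), Foxm1, an activator of division genes, was at -0.31 (SE 0.18) and E2f1, an activator of S phase genes, at 0.32 (SE 0.15). The adjusted p values of these 5 genes by edgeR were 0.331 to 0.772.

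**Figure D4:**
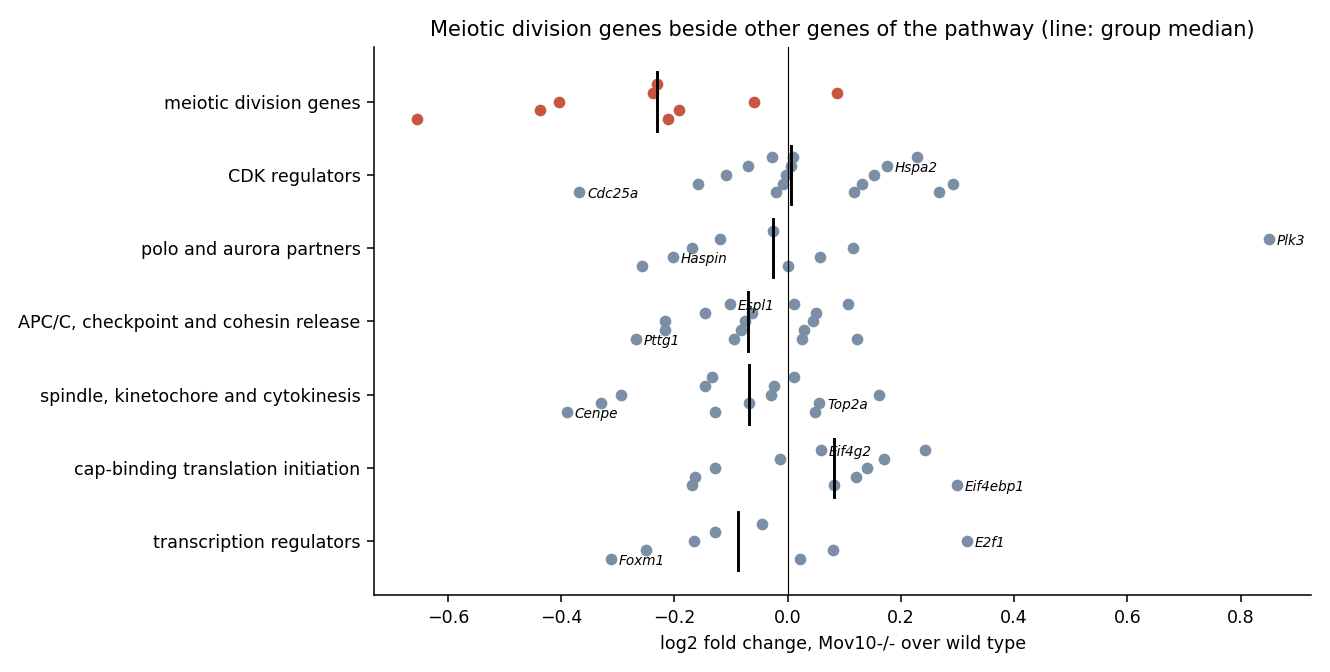
log2 fold change, Mov10-/- over wild type (x axis), of the 9 tested meiotic division genes (red) and of the 74 tested genes of the 6 groups of the pathway list (grey), 1 point per gene, with the group median as a line and the genes chosen by rule named. The medians are -0.23 for the meiotic division genes and between -0.09 and 0.08 for the 6 groups.

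Cell type markers also differed between libraries. The round spermatid markers (10 genes, 9 tested, median log2 fold change -2.19) summed to 241, 629.5 and 158 CPM in wild type 1, 2 and 3, and to 43.2, 132 and 65.4 CPM in Mov10-/- 2, 3 and 4. The genotypes did not overlap for 7 of the 9, all lower in Mov10-/-, where 14.1% of all genes were so placed. The ranges of the sum did not overlap. By edgeR 0 were called, while all 9 were lower at an unadjusted p under 0.05, where 11.9% of all genes were. Wild type 2 and Mov10-/- 3 held the highest sums of their genotypes and Mov10-/- 2 the lowest, as for the members. The pachytene spermatocyte markers (10 tested, median -0.10, 0 below) summed to 1782, 2121 and 1720 CPM in wild type and to 1461, 2209 and 1749 CPM in Mov10-/-. The members together summed to 897, 1076 and 841 CPM in wild type and to 702, 995 and 823 CPM in Mov10-/-.

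As a percent of the pachytene sum, the members stood at 50.3%, 50.7% and 48.9% in wild type and at 48.0%, 45.0% and 47.1% in Mov10-/-. Without Eif4g3, which made up much of the sum, they stood at 30.0%, 30.4% and 29.0% against 26.8%, 25.6% and 26.9%. Neither percent overlapped between the genotypes, though with Eif4g3 the nearest libraries stood at 48.9% and 48.0%. No background was computed for such a percent. Both sums used a single scaling factor per library, so the uneven scaling with coverage was not removed from them. Early spermatocyte markers (median 0.06) summed to 1132 to 1146 CPM in wild type and 1146 to 1203 CPM in Mov10-/-. Spermatogonial markers had a median of 0.24, and their sums overlapped, at 455 to 547 and 533 to 604 CPM.

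The somatic marker lists had medians above 0, and 0 of their genes were called. Sertoli cell markers (7 of 8 tested, 3 of them with no overlap) had a median of 0.31, with sums of 610 to 704 CPM in wild type and 749 to 899 CPM in Mov10-/-. These ranges did not overlap. By edgeR 4 of the 7 were higher at an unadjusted p under 0.05, where 5.57% of all genes were, and 0 were lower. Peritubular cell and macrophage markers (8 tested, 3 with no overlap) had a median of 0.40, with sums of 395 to 528 and 524 to 687 CPM. In both lists the genes with no overlap were higher in Mov10-/-, where 11.9% of all genes were so placed. Leydig cell markers (6 of 7 tested) had a median of 0.21, with sums of 271 to 501 and 357 to 534 CPM, and their defining gene Insl3 had only 1 to 6 reads. The part of the cell types in the levels of the members was not tested.

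**Figure D5:**
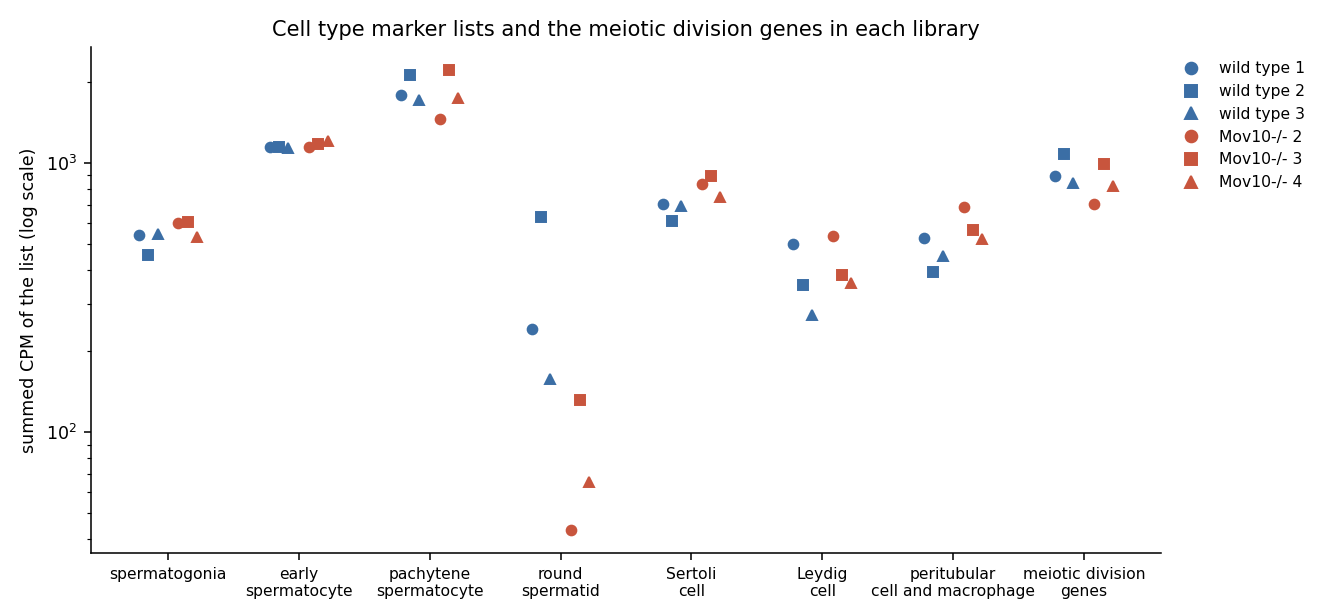
Summed CPM after TMM scaling (y axis, log scale) of 7 cell type marker lists and of the 10 meiotic division genes in the 3 wild type (blue) and 3 Mov10-/- (red) libraries, 1 point per library. The round spermatid sums separate the genotypes (158 to 629.5 CPM against 43.2 to 132 CPM), and so do the Sertoli cell sums (610 to 704 CPM against 749 to 899 CPM). The sums of the pachytene markers and of the meiotic division genes overlap between the genotypes.

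In MOV10 CLIP-seq, which sequences RNA crosslinked to MOV10, 9 of the 10 members had no read in any library. Eif4g3 had 1, 1, 1 and 0 reads in libraries 1, 2, 3 and 5. Libraries 1, 2 and 3 differed by less than the sampling noise and were counted as 1 sample. The CLIP-seq libraries had only 3404 to 4934 reads on genes, so that a count of 0 allows up to 3 counts or 608 to 881 CPM per library, a limit that covers counting error only and lies above the RNA-seq level of every member. MOV10 binding in mere proportion to the RNA level was thus not detectable for the RNAs with no read. A strong enrichment over that level could have given reads for the more abundant members, and no limit on enrichment was computed. The libraries held 9468912 to 15182658 reads in all, of which 99.5% to 99.6% were not aligned in the deposited counts. The study itself reports many transcripts bound by MOV10 in P21 testis.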

How the data were processed

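RNA-seq and MOV10 CLIP-seq libraries of P21 mouse testes were used as raw counts of reads per Ensembl gene, which the authors deposited for each library. For RNA-seq the methods name a stranded mRNA kit, STAR on mm10, htseq-count on an Ensembl annotation and edgeR, with no versions for these tools given in the sources used here. Rows of reads outside genes, ambiguous, not unique or not aligned (52.8% to 71.7% of reads in RNA-seq, over 99.9% in CLIP-seq) were left out of library totals. Gene names, exon lengths and coordinates came from GENCODE M21 (mm10), which matched 55240 of 55421 genes, and promoters from RefSeq on GRCm38.p6.

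Counts of the 3 wild type and 3 Mov10-/- libraries were fitted with edgeR 4.0.16 in R 4.3.3 (TMM, quasi-likelihood test). Alternatives used limma 3.58.1, DESeq2 1.42.0, other edgeR tests, other scalings, no filter, a replicate block and each library left out. The coverage-dependent scaling, added after seeing the data, used a lowess curve (span 0.3) of log2 counts on reads per exon base as an offset. The tests and the coverage-dependent scaling were run on simulated counts. The simulated counts held no dependence on coverage, so they cannot tell how well that scaling suits these libraries. Intervals of log2 fold changes cover the spread between the mice. The members and gene lists were chosen with earlier results of these data known. Of the pathway list, the text names per group the gene with the largest change and the gene with the highest wild type level, and any gene called.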

Additional observations from a re-analysis of the deposited data

How the results depend on the processing

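0 members and 0 pathway genes were called in either direction under all 16 alternatives, as in the main result. Of 135 recomputed log2 fold changes of members, 133 kept their direction and 0 passed both thresholds. Both reversals were of Eif4g3, whose value ran from -0.19 to 0.048 over the fits without 1 library each, at 0.048 without wild type 2 and 0.040 without Mov10-/- 2. The median of the members lay between -0.37 (without Mov10-/- 3) and -0.12 (without wild type 2). The number of genes called lower over the whole table differed far more between tests, with 1 by the quasi-likelihood test, 1 by voom, 1104 by the likelihood ratio test, 1031 by the exact test and 988 by DESeq2, and the cause was not tested.

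The labels share only the replicate numbers 2 and 3 between genotypes. Deviations from the group means correlated at -0.463 and -0.344 for these pairs, so the numbers were not taken to pair the samples. With the replicate number as a block, the log2 fold change of Cdc25c was -0.62, 0 members were called, and 145 genes were called lower and 36 higher over the whole table.

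Low counts limit the text for Ccnb3, with 0 to 10 reads per library, and for CLIP-seq.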
